A study of Mus musculus with 6 samples.

Results

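Expression of 43 cell cycle and proliferation genes was compared in tumor endothelial cells (ECs) from WT mice and from Apelin-KO mice. The genes were listed by name for their known roles in DNA replication and mitosis, with earlier results of these data known, and all 43 were found among the 24346 gene symbols of the data. They fell into 16 S-phase members and 27 mitotic members. All 43 had a mean of at least 1 FPKM (a level scaled to the length of the transcript and to the mapped reads of the sample) over the 6 samples, as did 10964 gene symbols in all, and these 10964 were tested.

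RNA-sequencing was performed on ECs from tumors of WT mice and Apelin-KO mice, 3 samples each, from mice of the C57BL/6 strain at 8 to 10 weeks of age. Both groups carried subcutaneous tumors of MC38, a mouse colon carcinoma cell line, taken at day 19. Apelin-KO mice lack Apln, the gene for the peptide Apelin, and no cell type or time is named to which the loss would be restricted. The titles of all 6 samples name saline, and cells were sorted from digested tumors as CD31+ CD45- cells. The labels do not say whether the samples of a genotype came from separate mice, and p-values measure only the spread between these samples.

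A cell enters the cycle when cyclin D and cyclin E kinases release the E2F transcription factors, which switch on the genes for DNA synthesis. Origins of replication are licensed by loading of the MCM helicase, and DNA is then copied in S phase. Later in the cycle, FOXM1 and the MuvB complex switch on the genes for chromosome segregation and cell division. Most ECs of adult vessels are quiescent, while ECs of growing tumor vessels divide, and these genes are commonly read as marks of vessel growth.

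E2F acts through sites with the letters of its motif, and the mitotic program through the CHR element and CCAAT boxes, so these were searched in the promoters of the members. Sequences are shown for members that hold these motifs within 150 bases before the start, as examples of the S-phase and the mitotic kind. Promoter windows from RefSeq (GRCm38.p6, 250 bases before to 50 bases after the annotated start) were matched by symbol for 13 of the 16 S-phase members and 21 of the 27 mitotic members. Strict E2F motifs, TTTCCCGC or TTTGGCGC on either strand, were found in 6 of the 13 S-phase members (46.2%) and in 0 of the 21 mitotic members, against 1.8% of all 27025 genes with a window. The cell cycle homology region (CHR) motif, TTTGAA on either strand, was found in 14 of the 21 mitotic members (66.7%) and in 1 of the 13 S-phase members, Mcm2, against 20.2% of all genes. A CCAAT box, CCAAT on either strand, was found in 18 of the 21 mitotic members (85.7%) and 8 of the 13 S-phase members (61.5%), against 41.1% of all genes. The lists of other replication and other mitotic genes used below were searched likewise. E2F motifs were found in 21.9% of the other replication genes with a window and in 10.9% of the other mitotic genes. For the CHR the shares were 21.9% and 69.6%, and for the CCAAT box 62.5% and 67.4%, in the same order. The contrast in E2F motifs was thus smaller there than among the members. Matches of different motifs were counted separately, also where they shared bases. A match describes the letters of a window and does not show binding by a factor.

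The 150 bases directly before the start annotated by RefSeq are given for 3 S-phase members, 5′ to 3′ on the strand of the gene, with the E2F motif and the CCAAT box (CCAAT or ATTGG) in capitals. They are Mcm6 at chr1:128359706-128359855 on the minus strand, Mcm5 at chr8:75109359-75109508 on the plus strand and Cdc6 at chr11:98908001-98908150 on the plus strand. Mcm6 had 2 E2F motifs in this stretch and Mcm5 and Cdc6 had 1 each, and Cdc6 had no CCAAT box. GENCODE M21 starts Cdc6 further upstream, at 98907801, so that by this annotation the whole stretch of Cdc6 lies inside the gene.
Mcm6: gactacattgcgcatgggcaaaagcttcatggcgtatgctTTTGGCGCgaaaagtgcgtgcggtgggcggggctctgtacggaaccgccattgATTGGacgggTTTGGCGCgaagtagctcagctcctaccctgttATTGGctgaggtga
Mcm5: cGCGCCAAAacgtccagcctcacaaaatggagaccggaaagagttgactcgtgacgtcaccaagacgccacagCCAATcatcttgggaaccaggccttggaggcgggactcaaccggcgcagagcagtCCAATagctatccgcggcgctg
Cdc6: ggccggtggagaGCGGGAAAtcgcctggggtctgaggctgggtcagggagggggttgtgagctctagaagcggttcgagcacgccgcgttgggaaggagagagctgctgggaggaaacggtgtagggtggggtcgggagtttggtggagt

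The same stretch is given for 4 mitotic members, with the CHR (TTTGAA or TTCAAA) and the CCAAT box in capitals. They are Cdk1 at chr10:69352913-69353062 on the minus strand, Cdc20 at chr4:118437344-118437493 on the minus strand, Ube2c at chr2:164769779-164769928 on the plus strand and Kif11 at chr19:37376232-37376381 on the plus strand. In each of the 4 a CHR lay within 30 bases of the start, at 15 bases in Cdk1, 18 in Cdc20, 29 in Ube2c and 19 in Kif11. Top2a and Mki67, not shown, also had a CHR in this stretch, at 23 bases in Top2a and at 98 and 116 in Mki67. In Cenpf, Bub1b, Aurka, Cenpa, Plk1, Kif23 and Ttk the only CHR of the window lay after the start. The 4 therefore do not stand for the place of the CHR in the mitotic members. By GENCODE M21 the last bases of the stretches of Cdk1, Cdc20 and Ube2c lie inside the gene.
Cdk1: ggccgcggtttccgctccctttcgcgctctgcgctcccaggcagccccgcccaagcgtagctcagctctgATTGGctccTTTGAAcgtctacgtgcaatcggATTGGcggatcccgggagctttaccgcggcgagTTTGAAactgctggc
Cdc20: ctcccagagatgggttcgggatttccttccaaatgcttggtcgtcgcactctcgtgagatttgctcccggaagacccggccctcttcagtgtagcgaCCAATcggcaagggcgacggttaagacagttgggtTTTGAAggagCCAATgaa
Ube2c: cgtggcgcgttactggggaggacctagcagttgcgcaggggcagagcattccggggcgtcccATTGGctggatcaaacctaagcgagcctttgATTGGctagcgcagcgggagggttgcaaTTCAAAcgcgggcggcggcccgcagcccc
Kif11: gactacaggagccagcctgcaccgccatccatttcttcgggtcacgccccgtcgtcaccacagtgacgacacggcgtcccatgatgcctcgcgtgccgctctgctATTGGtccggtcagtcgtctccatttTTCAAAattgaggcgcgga

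The samples were of similar depth. From the step that a single read makes in low FPKM values, between 8830000 and 10080000 reads per sample were estimated. FPKM summed to between 489396 and 529018, and between 14089 and 14621 genes per sample were above 0. Apln was expressed at 432, 435 and 504 FPKM in WT 1, 2 and 3 and at 9.96, 17.5 and 24.3 FPKM in the 3 Apelin-KO samples in that order, so the labels and the targeted gene matched in each sample. It was also the only gene of the 10964 with an adjusted p-value under 0.05 (log2 difference of 4.73, adjusted p = 0.00747, limma with Benjamini-Hochberg adjustment). The endothelial markers Pecam1, Cdh5 and Kdr were at 155 to 846 FPKM, and the epithelial markers Epcam, Krt8 and Krt18 at 0 to 0.264 FPKM. One library, Apelin-KO 3, stood apart in the S-phase members, and their differences are given with and without it.

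All 43 members were expressed in tumor ECs of both genotypes, and none of them passed the test between WT and Apelin-KO. With limma, 0 of the 43 members had an adjusted p-value under 0.05, against 0.00912% of all genes tested, and 0 of the 43 had an unadjusted p-value under 0.05, against 9.42% of all genes tested. With the intensity trend of limma, with the replicate block or under a filter at a mean of 5 FPKM, 1 member, Cdt1, had an unadjusted p-value under 0.05. The share of all genes with such a p-value is not given for these settings, so this count stands without its background. The lowest adjusted p-value of a member was 0.525. All samples of one genotype lay above all samples of the other in 1 member with WT higher (Cdt1), where 6.61% of all genes did so, and in 1 member with Apelin-KO higher (Kif11), where 7.77% did so. Differences, given as WT minus Apelin-KO in log2(FPKM + 1), ran from -0.29 to 0.46. Because 1 is added before the logarithm, this scale shows less than the full change of low genes. With 3 samples in each arm an exact permutation test could not give a p-value under 0.1. In these bulk samples fewer dividing cells and less RNA per cell cannot be told apart.

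By sign, the S-phase and the mitotic members lay on different sides. All 16 S-phase members had a positive difference, with a median of 0.17, while 8 of the 27 mitotic members had a positive and 19 a negative difference, with a median of -0.09. The median over all genes tested was -0.01. Without Apelin-KO 3 the median of the S-phase members was -0.08, with 4 positive and 12 negative differences, and that of the mitotic members was -0.21, with 2 positive and 25 negative differences. Without Apelin-KO 1 the S-phase median was 0.45 and the mitotic median 0.01. The direction of both medians thus rested on single Apelin-KO samples.

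**Figure D1:**
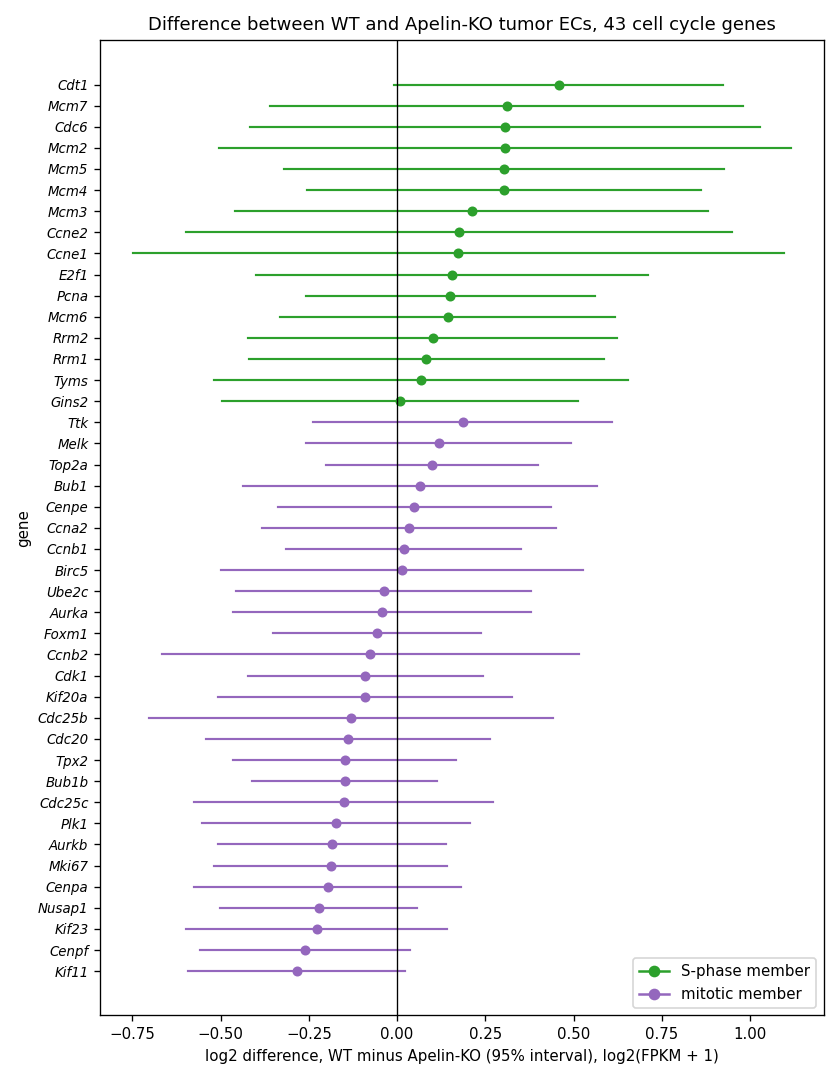
Difference between WT and Apelin-KO for each of the 43 genes, as WT minus Apelin-KO in log2(FPKM + 1) on the horizontal axis, with points for the estimate of limma and lines for its 95% interval, S-phase members in green and mitotic members in purple. Every interval includes 0, all 16 S-phase points lie to the right of it, and Cdt1 (0.46) and Kif11 (-0.29) are at the ends.

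The plot of differences shows that intervals were wide. For Mcm2 the interval ran from -0.51 to 1.12 and for Ccne1 from -0.75 to 1.10, so that these data allow either direction. Among mitotic members the interval was narrowest for Bub1b, from -0.41 to 0.11.

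Among the S-phase members, those that start the cycle were described first. Ccne1, which encodes cyclin E1, the activator of Cdk2 at the entry to S phase, was at 7.89, 8.40 and 7.50 FPKM in WT 1, 2 and 3 and at 10.6, 9.86 and 2.95 FPKM in the 3 Apelin-KO samples in that order. Apelin-KO 1 and 2 lay above every WT sample and Apelin-KO 3 below every WT sample, at 39.3% of the next lowest sample. The means of 7.93 ± 0.448 (SD, n = 3) and 7.79 ± 4.21 (SD, n = 3) FPKM were thus nearly equal while the spread was not. Without Apelin-KO 3 the difference of Ccne1 turned from 0.17 to -0.33 (unadjusted p = 0.0208 in limma), and no member had an adjusted p-value under 0.727. Ccne2, which encodes the second E-type cyclin, was at 5.48, 8.03 and 7.14 FPKM in WT and at 9.59, 6.51 and 3.16 FPKM in the 3 Apelin-KO samples in that order. The genotypes overlapped, with an Apelin-KO sample at each end. E2f1, the activator that drives many S-phase genes, was at 10.56, 15.03 and 12.06 FPKM in WT and at 16.1, 9.32 and 8.89 FPKM in Apelin-KO. Here Apelin-KO 2 was nearly as low as Apelin-KO 3. Without Apelin-KO 3 the difference of Ccne2 turned from 0.18 to -0.19, and that of E2f1 went from 0.16 to 0.01.

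Cdc6 and Cdt1 encode the factors that load the MCM helicase onto origins. Cdt1 (chr8:122568015-122573554, plus strand, GRCm38) was at 8.44, 8.68 and 7.38 FPKM in WT and at 7.33, 6.20 and 3.92 FPKM in Apelin-KO. The 3 WT samples were the 3 highest, although WT 3 and Apelin-KO 1 were nearly equal. The difference was 0.46 with an interval of -0.01 to 0.92 (unadjusted p = 0.0531, adjusted p = 0.525, limma with Benjamini-Hochberg adjustment), the largest among the members, and it ran from 0.24 without Apelin-KO 3 to 0.62 without Apelin-KO 1. Without Apelin-KO 1, Cdt1 (unadjusted p = 0.0158) and E2f1 (unadjusted p = 0.0440) were the members with an unadjusted p-value under 0.05 in limma, both with a positive difference. In that setting 9% of all genes tested had such a p-value, and the lowest adjusted p-value of a member was 0.554. Cdc6 was the S-phase member with the lowest level, at 2.83, 3.80 and 3.18 FPKM in WT and at 3.24, 3.69 and 1.04 FPKM in Apelin-KO. Apelin-KO 3 was at 36.9% of the next lowest sample, on an estimated 45.0 reads, and the other 5 samples were close together. Without it the difference of Cdc6 turned from 0.31 to -0.07. Gins2, a subunit of the GINS complex that joins MCM in the active helicase, was the exception among the S-phase members. It was at 14.9, 17.9 and 11.2 FPKM in WT and at 18.6, 11.9 and 13.3 FPKM in Apelin-KO, so that WT 3 was lowest and Apelin-KO 3 lay within the range of the others. Its difference was 0.01 with all samples and -0.04 without Apelin-KO 3.

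Mcm2 to Mcm7 encode the 6 subunits of the replicative helicase. Mcm6 had the highest level of all members, at 83.3, 88.2 and 95.4 FPKM in WT and at 94.8, 94.6 and 57.8 FPKM in Apelin-KO. Mcm3 was at 43.1, 47.9 and 45.4 FPKM in WT and at 55.6, 44.8 and 23.9 FPKM in Apelin-KO. In both genes Apelin-KO 1 and 2 lay among the WT samples or above them and Apelin-KO 3 lay far below. Mcm2 was at 22.8, 25.9 and 21.0 FPKM in WT and at 24.9, 25.8 and 9.74 FPKM in Apelin-KO. Mcm7 was at 13.9, 15.1 and 15.6 FPKM in WT and at 16.9, 13.7 and 6.92 FPKM in Apelin-KO. In Mcm2 and Mcm7 the level of Apelin-KO 3 was 46.3% and 50.6% of the next lowest sample. Mcm4 was at 25.6 to 29.0 FPKM in WT and at 26.5, 26.2 and 14.1 FPKM in Apelin-KO. Mcm5 was at 28.4 to 38.7 FPKM in WT and at 36.7, 27.8 and 17.3 FPKM in Apelin-KO. All 6 subunits had the same order at the low end, with Apelin-KO 3 lowest at 46.3% to 69.4% of the next sample. Without Apelin-KO 3 the differences of Mcm2, Mcm3, Mcm6 and Mcm7, which were 0.31, 0.21, 0.14 and 0.31, turned to -0.13, -0.13, -0.09 and -0.03, and those of Mcm4 and Mcm5 fell to 0.02.

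Pcna, the sliding clamp of the replicative polymerases, was at 28.37, 30.32 and 29.99 FPKM in WT and at 33.4, 27.2 and 20.5 FPKM in Apelin-KO. The WT samples were close together, with a mean of 29.6 ± 1.04 (SD, n = 3) FPKM, and the Apelin-KO samples ranged around them. Rrm1 and Rrm2, which encode the subunits of ribonucleotide reductase that makes deoxynucleotides, and Tyms, which encodes thymidylate synthase, had the same highest and lowest samples as Pcna. Rrm1 was at 50.2, 66.7 and 51.9 FPKM in WT and at 68.7, 53.4 and 39.7 FPKM in Apelin-KO. Rrm2 was at 30.9, 39.5 and 35.1 FPKM in WT and at 44.4, 32.5 and 23.8 FPKM in Apelin-KO. For Tyms, values of 16.9, 19.7 and 18.0 FPKM in WT and of 25.6, 16.9 and 11.9 FPKM in Apelin-KO were found. In each of these 4 genes Apelin-KO 1 was the highest sample and Apelin-KO 3 the lowest, at 70.5% to 79.0% of the next sample. Without Apelin-KO 3 the differences of Pcna, Rrm1, Rrm2 and Tyms, which were 0.15, 0.08, 0.10 and 0.07, turned to -0.03, -0.12, -0.12 and -0.18.

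**Figure D2:**
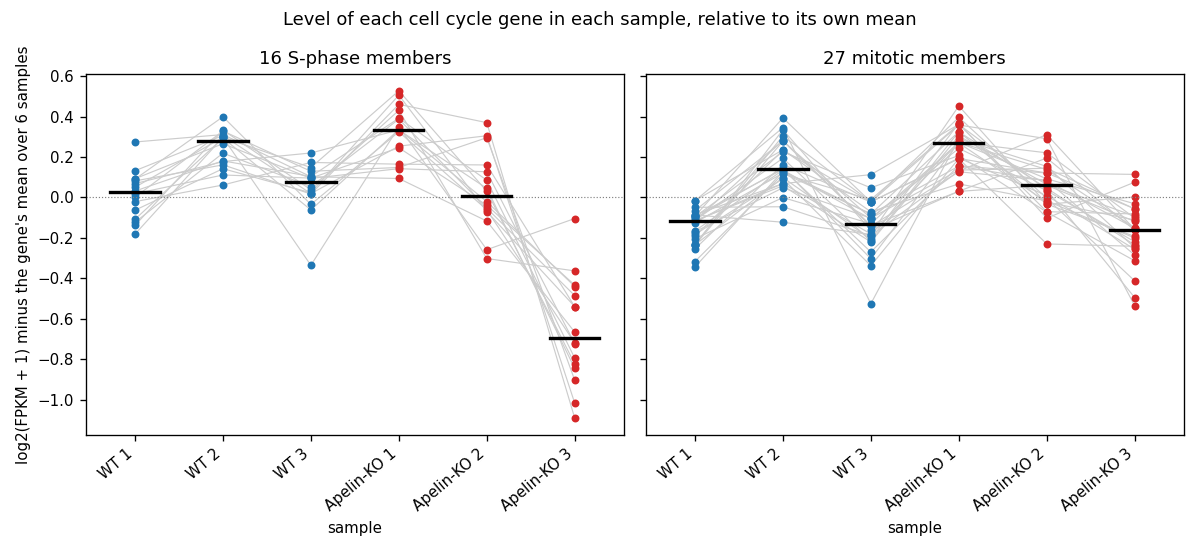
Level of each gene in each sample as log2(FPKM + 1) minus the mean of the gene over the 6 samples, for the 16 S-phase members (left) and the 27 mitotic members (right), with 1 point per gene, grey lines joining the same gene, and black bars for the median over the genes. The median of the S-phase members is lowest in Apelin-KO 3, while the mitotic members of Apelin-KO 3 lie close to those of WT 1 and WT 3.

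In the plot of levels by sample the S-phase members part from the mitotic members mainly in Apelin-KO 3. For the 16 S-phase members the mean level, in log2(FPKM + 1), came to 4.27, 4.50 and 4.31 in the WT samples and to 4.58, 4.29 and 3.60 in the Apelin-KO samples. For the 27 mitotic members it came to 3.82, 4.13 and 3.83 in the WT samples and to 4.21, 4.03 and 3.80 in the Apelin-KO samples. The S-phase mean thus exceeded the mitotic mean by 0.26 to 0.47 in 5 samples, whereas in Apelin-KO 3 it lay below it, at -0.19. Apelin-KO 3 was the lowest sample in 15 of the 16 S-phase members (93.8%) and in 11 of the 27 mitotic members (40.7%), against 21.4% of all genes tested. As a percentage of the lowest other sample, its level had a median of 62.7% over the S-phase members and was under 80% in 14 of 16. Over the mitotic members the median was 103%, from 72.0% in Bub1 to 143% in Kif11, and 1 of 27, Bub1, was under 80%. The S-phase pattern of this library was seen after its values and is a description with no test. No label marks Apelin-KO 3 as different, and its estimated depth of 9360000 reads lay within the range of the other samples.

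Apelin-KO 3 also weighed on the spread of the S-phase members. The median SD over the S-phase members, in log2(FPKM + 1), was 0.13 in WT and 0.51 in Apelin-KO, and it was larger in Apelin-KO for 15 of 16. Between Apelin-KO 1 and 2 alone, a comparison added after the data were seen, it was 0.21 and larger than in WT for 11 of 16. Over the mitotic members it was 0.21 in WT and 0.23 in Apelin-KO, and over all genes tested 0.14 and 0.16. At the high end, Apelin-KO 1 was the highest sample in 26 of the 43 members (60.5%) and WT 2 in 14 (32.6%), against 19.8% and 18.4% of all genes tested. High samples of these genes therefore occurred within both genotypes. At the low end WT 1 was lowest in 8 of the 43 members and WT 3 in 9, against 15.7% and 11.3% of all genes tested. Among the 16 S-phase members WT 3 was lowest in 1 and WT 1 in 0.

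**Figure D3:**
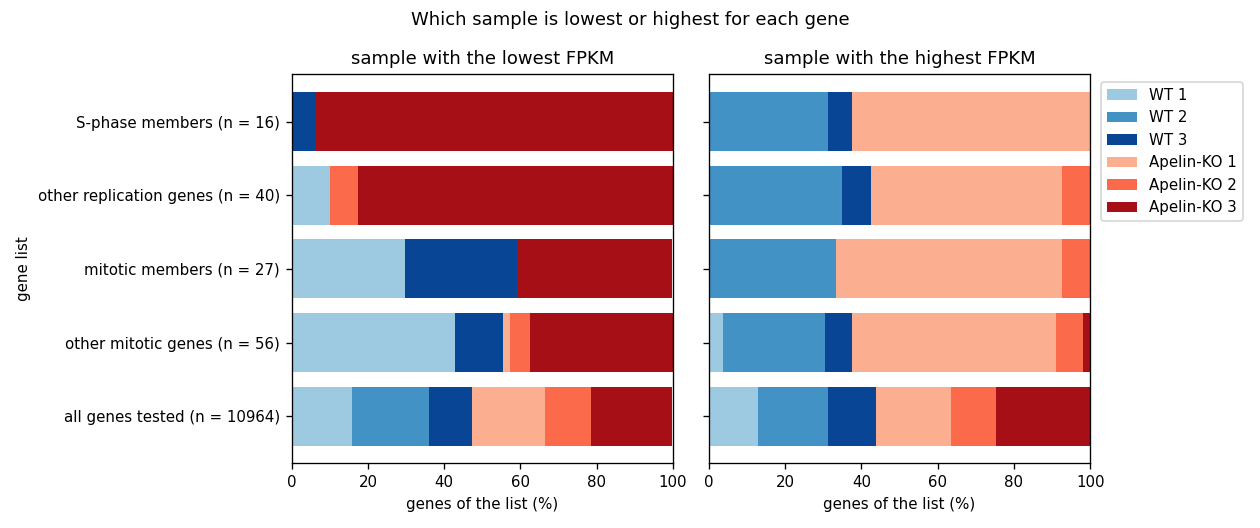
Share of genes (percent, horizontal axis) for which each of the 6 samples had the lowest (left) or the highest (right) FPKM, for the members, the other genes of replication and mitosis, and all 10964 genes tested. Apelin-KO 3 takes 93.8% of the lowest places in the S-phase members and 40.7% in the mitotic members, and Apelin-KO 1 takes 62.5% and 59.3% of the highest.

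Among the mitotic members, the cyclins and kinases that drive entry into mitosis did not separate the genotypes. Cdk1, which encodes the mitotic kinase, was at 35.1, 43.5 and 36.6 FPKM in WT and at 47.8, 38.9 and 36.5 FPKM in Apelin-KO. Ccna2, the gene of cyclin A2, was at 45.5, 66.3 and 52.7 FPKM in WT and at 61.4, 53.9 and 44.7 FPKM in Apelin-KO. The genotypes overlapped in both, with means of 38.4 ± 4.46 and 41.1 ± 5.96 FPKM for Cdk1 and of 54.9 ± 10.6 and 53.3 ± 8.38 FPKM for Ccna2 in WT and Apelin-KO (SD, n = 3 each). Ccnb1, the gene of cyclin B1, was at 15.7, 21.1 and 15.5 FPKM in WT and at 17.5, 17.9 and 15.7 FPKM in Apelin-KO. Ccnb2, the gene of cyclin B2, was at 39.1, 52.6 and 46.1 FPKM in WT and at 60.3, 57.5 and 32.0 FPKM in Apelin-KO. In Ccnb2 the Apelin-KO samples held both the highest and the lowest places, and without Apelin-KO 3 its difference went from -0.08 to -0.36. The phosphatases that activate Cdk1 were lower, with Cdc25b at 5.76 to 11.4 FPKM in WT and 7.19 to 10.9 FPKM in Apelin-KO, while Cdc25c was at 6.00 to 7.32 FPKM in WT and 5.94 to 9.85 FPKM in Apelin-KO. Foxm1, the transcription factor of the mitotic program, was at 8.80, 10.6 and 9.10 FPKM in WT and at 10.9, 10.3 and 8.62 FPKM in Apelin-KO, a difference of -0.06. Melk, a kinase of dividing cells, was at 7.34 to 9.42 FPKM in WT and 6.18 to 9.29 FPKM in Apelin-KO.

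Genes of the spindle and of chromosomes come next. Kif11 (chr19:37376403-37421859, plus strand, GRCm38), the motor that pushes the spindle poles apart, was at 6.49, 8.06 and 5.74 FPKM in WT and at 8.72, 8.25 and 8.21 FPKM in Apelin-KO. All 3 Apelin-KO samples lay above all 3 WT samples, with WT 2 close to Apelin-KO 2 and 3. The difference was -0.29 with an interval of -0.59 to 0.02 (unadjusted p = 0.0637, adjusted p = 0.542, limma with Benjamini-Hochberg adjustment), and the groups overlapped under upper-quartile scaling. Without WT 2 the unadjusted p-value of Kif11 was 0.0132 in limma, and no member had an adjusted p-value under 0.931. Cenpf, a large kinetochore protein gene, was the member with the lowest level, at 1.23, 1.17 and 1.08 FPKM in WT and at 1.86, 1.76 and 1.20 FPKM in Apelin-KO. Apelin-KO 3 lay among the WT samples. Its difference was -0.26 (unadjusted p = 0.0761 in limma), without Apelin-KO 3 it was -0.38 (unadjusted p = 0.00919), and with a pseudocount of 0.1 it was -0.41 (unadjusted p = 0.0529). Mki67, the gene of the proliferation marker Ki-67, was also low, at 3.04, 3.05 and 2.67 FPKM in WT and at 3.58, 4.19 and 2.75 FPKM in Apelin-KO. Its difference was -0.19, and without Apelin-KO 3 it was -0.32 (unadjusted p = 0.0343 in limma). The lowest adjusted p-value of a member without Apelin-KO 3 was 0.727.

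The motors Kif23 and Kif20a, which act in cytokinesis, were at 9.80 to 12.6 and 11.6 to 15.7 FPKM in WT and at 10.8 to 15.4 and 11.4 to 17.3 FPKM in Apelin-KO. Nusap1 and Tpx2, which bind spindle microtubules, had differences of -0.22 and -0.15. Cenpa, the histone variant of centromeres, was at 23.5, 32.9 and 28.3 FPKM in WT and at 37.9, 29.3 and 30.1 FPKM in Apelin-KO, a difference of -0.20 with an interval of -0.57 to 0.18. Cenpe, a kinetochore motor, was at 2.42 to 3.58 FPKM in WT and at 2.10 to 3.12 FPKM in Apelin-KO, a difference of 0.05. These genes overlapped between the genotypes.

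The checkpoint kinases and regulators of the exit from mitosis were likewise spread over both genotypes. Bub1, a kinase of the spindle checkpoint, was lowest in Apelin-KO 3, at 72.0% of the next sample, with values of 7.57, 8.53 and 8.83 FPKM in WT and of 10.7, 8.33 and 5.45 FPKM in Apelin-KO. Bub1b, the gene of BubR1, was at 13.7 to 16.1 FPKM in WT and 14.9 to 17.3 FPKM in Apelin-KO. Ttk, the kinase Mps1, had the highest difference among the mitotic members, 0.19, at 4.09, 6.12 and 4.34 FPKM in WT and at 5.19, 3.63 and 3.59 FPKM in Apelin-KO. Plk1, Aurka and Aurkb encode kinases of the spindle and the centrosome. Plk1 was at 26.4, 31.5 and 22.9 FPKM in WT and at 34.6, 31.4 and 25.5 FPKM in Apelin-KO, while Aurkb was at 18.4 to 22.5 FPKM in WT and 20.1 to 26.8 FPKM in Apelin-KO. Their differences were -0.17 and -0.18, and that of Aurka was -0.04. Birc5, the gene of survivin, the partner of Aurora B, was at 51.0, 68.8 and 57.5 FPKM in WT and at 77.1, 58.2 and 43.6 FPKM in Apelin-KO, with a difference of 0.01. Cdc20 and Ube2c, which activate and serve the anaphase-promoting complex, had differences of -0.14 and -0.04. Ube2c had the highest level of the mitotic members, at 67.3, 96.5 and 73.9 FPKM in WT and at 94.1, 81.3 and 68.0 FPKM in Apelin-KO. Top2a, the topoisomerase that untangles chromosomes, was at 21.6, 25.9 and 20.8 FPKM in WT and at 23.0, 21.6 and 18.9 FPKM in Apelin-KO, so that its 6 values lay close together.

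**Figure D4:**
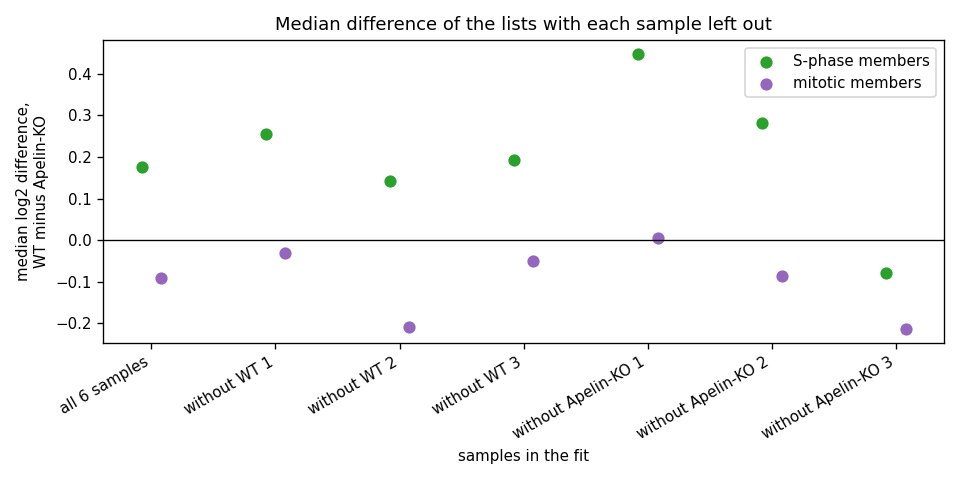
Median difference (WT minus Apelin-KO, log2(FPKM + 1)) of the 16 S-phase members (green) and the 27 mitotic members (purple) with all 6 samples and after each sample was dropped. The S-phase median is positive except without Apelin-KO 3 (-0.08), and the mitotic median is negative except without Apelin-KO 1 (0.01).

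Other genes of the cycle were read from lists of known genes. Of 42 other replication genes, 40 were tested, and Apelin-KO 3 was the lowest sample in 33 of them (82.5%). By sign 31 were higher in WT and 9 in Apelin-KO, with a median of 0.13, where 5209 of all genes tested were higher in WT and 5755 in Apelin-KO. Without Apelin-KO 3, also looked at after the data were seen, 18 were higher in WT and 22 in Apelin-KO, with a median of -0.07. In each direction 1 gene had an unadjusted p-value under 0.05, that is 2 of 40, against 9.42% of all genes tested. Rfc3, a subunit of the clamp loader, was at 16.04, 20.06 and 15.83 FPKM in WT and at 13.0, 13.8 and 9.19 FPKM in Apelin-KO (difference of 0.51, unadjusted p = 0.0222 in limma). Its genotypes did not overlap, and its unadjusted p-value was above 0.05 without WT 2 or Apelin-KO 3. Prim1, the catalytic subunit of primase, was chosen after its values were seen, since it had the S-phase order in an extreme form, at 13.1, 13.7 and 13.9 FPKM in WT and at 16.4, 14.8 and 4.92 FPKM in Apelin-KO.

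All 56 other mitotic genes were tested, and Apelin-KO 3 was the lowest sample in 21 (37.5%). By sign 17 were higher in WT and 39 in Apelin-KO, with a median of -0.09, and 7 and 49 without Apelin-KO 3, with a median of -0.18. In each direction 1 of the 56 had an unadjusted p-value under 0.05, against 9.42% of all genes tested. Pttg1, the gene of securin, which holds back the separation of sister chromatids, was at 62.8, 61.9 and 76.6 FPKM in WT and at 46.1, 50.4 and 52.4 FPKM in Apelin-KO (difference of 0.42, unadjusted p = 0.0101, adjusted p = 0.501 in limma). It lay on the other side from most mitotic genes, and its unadjusted p-value was under 0.05 in all 13 alternative settings, with 0.0333 as the highest. Ckap2l, a spindle protein gene, was at 7.68, 9.57 and 8.70 FPKM in WT and at 10.8, 12.1 and 9.90 FPKM in Apelin-KO (difference of -0.31, unadjusted p = 0.0397). Its unadjusted p-value was above 0.05 without WT 1, WT 3, Apelin-KO 1 or Apelin-KO 2, up to 0.131.

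Genes that act before S phase were read next. They were 22 G1 cyclins, cyclin-dependent kinases, E2F and pocket protein genes, all tested. Apelin-KO 3 was the lowest sample in 10 of the 22 (45.5%), against 21.4% of all genes tested. Of the 22, 3 had an unadjusted p-value under 0.05, all with WT higher, against 9.42% of all genes tested in both directions. The adjusted p-values in limma were at least 0.503. Ccnd2, the gene of cyclin D2, was at 12.1, 8.59 and 6.12 FPKM in WT and at 4.10, 5.59 and 5.44 FPKM in Apelin-KO (difference of 0.68, SE 0.23, unadjusted p = 0.0202). The WT samples were widely spread, and the lowest of them lay just above the Apelin-KO samples. Rbl1, which encodes the pocket protein p107, was at 10.2, 11.9 and 11.6 FPKM in WT and at 8.70, 9.85 and 7.58 FPKM in Apelin-KO (unadjusted p = 0.0284). E2f5, a repressive E2F, was at 9.84, 10.8 and 11.3 FPKM in WT and at 8.88, 9.30 and 7.57 FPKM in Apelin-KO (unadjusted p = 0.0405). The genotypes were apart in both. The unadjusted p-values of Ccnd2, Rbl1 and E2f5 were above 0.05 without WT 2 or without Apelin-KO 1, those of Rbl1 and E2f5 also without WT 3 or Apelin-KO 3, that of Ccnd2 without WT 1, and that of E2f5 with the replicate block.

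Of 19 genes of CDK inhibitors and p53 targets, 18 were tested, and 2 had an unadjusted p-value under 0.05, both with Apelin-KO higher, against 9.42% of all genes tested in both directions. Cdkn1c, which encodes the CDK inhibitor p57, was at 2.31, 2.21 and 2.43 FPKM in WT and at 4.51, 3.47 and 5.89 FPKM in Apelin-KO. The Apelin-KO samples all lay above the closely spaced WT samples, with means of 4.62 ± 1.22 and 2.32 ± 0.109 FPKM (SD, n = 3 each). The difference was -0.74 with an SE of 0.16 (unadjusted p = 0.00264, adjusted p = 0.501, limma with Benjamini-Hochberg adjustment), and the unadjusted p-value was under 0.05 in all 12 alternative settings that tested it, with 0.0114 as the highest. Cdkn2c, which encodes the inhibitor p18, was at 11.2, 15.1 and 14.1 FPKM in WT and at 18.6, 17.2 and 17.1 FPKM in Apelin-KO (difference of -0.37, unadjusted p = 0.0238). Its unadjusted p-value reached 0.05 or more with the replicate block and without WT 1 or Apelin-KO 1, up to 0.0710. Apelin-KO 3 was the highest sample in 8 of the 18 genes (44.4%), against 24.9% of all genes tested. Cdkn1a, Cdkn1b and Btg2, chosen after their values were seen, were of this kind. Cdkn1a, the gene of p21, was at 124, 96.0 and 107 FPKM in WT and at 111, 115 and 186 FPKM in Apelin-KO. Cdkn1b, the gene of p27, was at 3.72 to 5.39 FPKM in WT and at 4.49, 4.19 and 7.70 FPKM in Apelin-KO. The antiproliferative gene Btg2 was at 51.9 to 54.8 FPKM in WT and at 53.8, 56.9 and 73.6 FPKM in Apelin-KO.

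**Figure D5:**
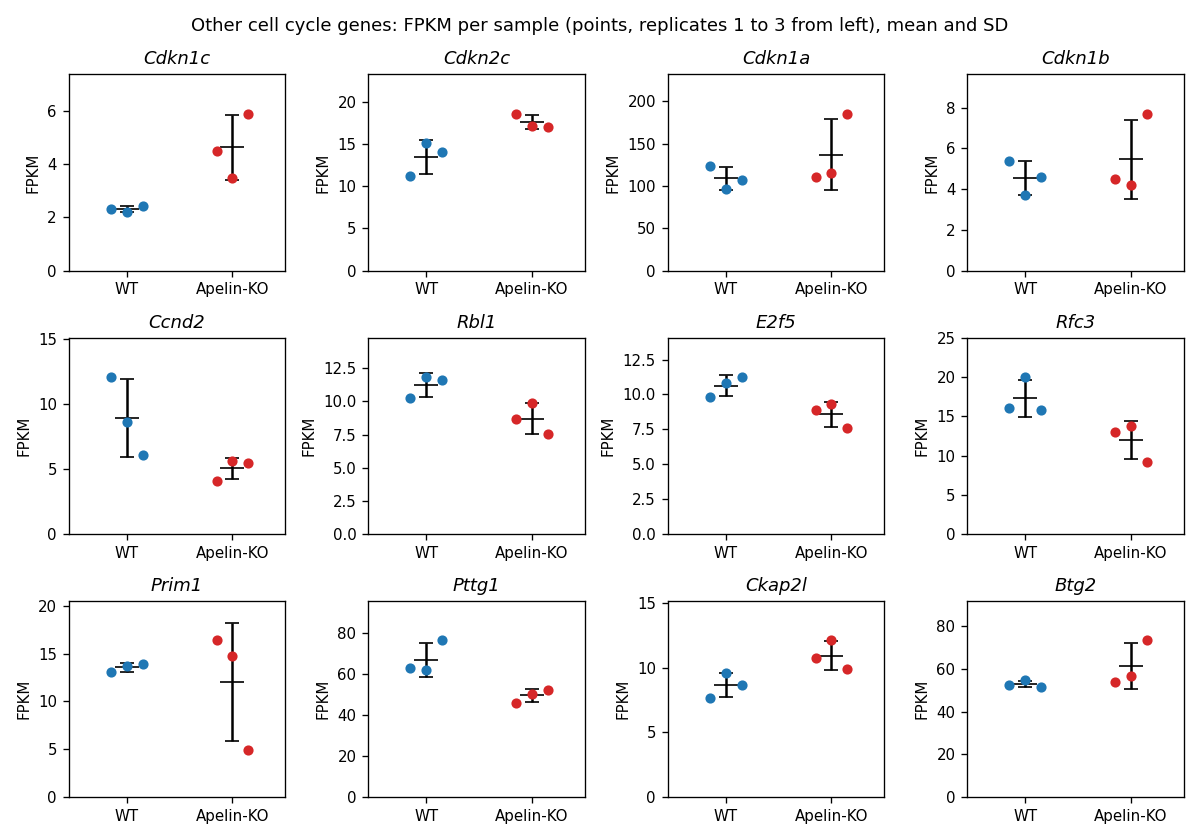
FPKM of 12 other cell cycle genes in each sample (points, replicates 1 to 3 from left to right), with the mean and SD of each genotype. Cdkn1c and Cdkn2c are higher in all Apelin-KO samples than in all WT samples, while Cdkn1a, Cdkn1b and Btg2 are high in Apelin-KO 3 (186, 7.70 and 73.6 FPKM) and Prim1 is low there (4.92 FPKM).

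The plot of single genes shows the genes named for an unadjusted p-value under 0.05 beside those named after their values were seen. Adjusted p-values in limma were at least 0.501 for all 12.

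Other cells in the sorted fraction could carry cycle transcripts of their own, and marker levels moved with the samples. The 20 hematopoietic markers summed to 840, 1275 and 434 FPKM in the WT samples and to 179, 537 and 377 FPKM in the Apelin-KO samples. Cd74 and Lyz2, named after their values were seen, made up much of these sums. Cd74 was at 307, 404 and 163 FPKM in WT and at 49.15, 211 and 86.8 FPKM in Apelin-KO. Lyz2 was at 185, 380 and 101 FPKM in WT and at 40.9, 127 and 114 FPKM in Apelin-KO. Of these 20 markers 15 had a mean of at least 1 FPKM, and the first 3 were Ptprc at 1.26 to 4.84, Csf1r at 9.19 to 34.2 and Itgam at 1.55 to 9.03 FPKM in WT. In Apelin-KO they were at 0.043 to 1.70, 3.50 to 12.7 and 0.38 to 2.29 FPKM. WT 2, highest for 14 of the 43 members, also had the highest hematopoietic sum, whereas Apelin-KO 1, highest for 26, had the lowest. The 15 endothelial markers summed to 4704, 4324 and 5162 FPKM in the WT samples and to 5535, 5335 and 5586 FPKM in the Apelin-KO samples, without overlap. Apelin-KO 3, with the lowest S-phase levels, was at the high end of the endothelial sum. The 15 pericyte markers summed to 710 to 933 FPKM in WT and 793 to 923 in Apelin-KO. Of them Mcam, a gene that ECs also express and that was named after its values were seen, made up 436 to 571 FPKM, Kcnj8 was at 63.9 to 108 FPKM, and Pdgfrb and Cspg4 were at 1.48 to 8.01 FPKM. The 15 fibroblast markers, such as Col1a1, Col1a2 and Col3a1, summed to 204 to 357 FPKM in WT and 136 to 213 in Apelin-KO. The 15 epithelial markers, which could mark tumor cells, summed to 8.72 to 13.8 FPKM in WT and to 13.1, 9.59 and 22.2 in Apelin-KO, of which Krt20, the single one with a mean of at least 1 FPKM and named after its values were seen, made up 6.41 to 20.6 FPKM. Of the 15, 2 were listed at 0 in all 6 samples. None of the hematopoietic markers was at 0 in all 6 samples. The part of these cells in the levels of the members was not tested.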

How the data were processed

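RNA was measured in 3 WT and 3 Apelin-KO samples of tumor ECs. The deposited files hold FPKM per gene symbol, which the authors computed from stranded mRNA libraries read in 75-base single-end runs and mapped to mm10. The submitters' processing notes name bcl2fastq 2.17.1.14, TopHat2 2.1.1, Bowtie2 2.2.4, SAMtools 1.0 and Cufflinks 2.2.1. The methods of the paper name other versions of TopHat, Bowtie2 and SAMtools, and which were used is not known here. The annotation, strand setting and filters are not given in the sources used here.

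A pseudocount of 1 was added to FPKM and log2 was taken. Genes averaging at least 1 FPKM, 10964 in number, entered a two-sided moderated test (limma 3.58.1, R 4.3.3), with no intensity trend and no block, and Benjamini-Hochberg adjustment covered all of them. The fit was tested on simulated data. Depth was estimated from 3742 single-transcript genes, assuming fragments of 200 bases, and 71.7% to 74.7% of low values then came within 0.1 of a whole read. No count test was run. The members and lists were chosen with earlier results of these data known. Named genes are all members, Apln, the first 3 markers of each list, and, from each of 4 other lists and in each direction, up to 3 genes with the largest difference among those with an unadjusted p-value under 0.05. A gene that this rule names is not reported here. Positions are from GENCODE M21, and promoter windows from RefSeq (GRCm38.p6) were read with Python 3.11.15. Alternatives were 13 settings of pseudocount, filter, scaling, variance trend, block and samples. Other experiments of the study were not analysed here.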

Additional observations from a re-analysis of the deposited data

How the results depend on the processing

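Differences of the 43 members kept their sign with a pseudocount of 0.1, no filter, a filter at a mean of 5 FPKM (which left 38 members), median-of-ratios or upper-quartile scaling, an intensity trend or the replicate block. Genes with an adjusted p-value under 0.05 numbered 1, and 2 with no filter, under the filter at 5 FPKM and with the intensity trend. Members with an unadjusted p-value under 0.05 numbered 0 with the settings of the Results, against 9.42% of all genes tested. They numbered 1, Cdt1, under the filter at 5 FPKM, with the intensity trend and with the replicate block, and 0 in the others. Members without overlap between genotypes numbered 2, against 6.61% of all genes tested with WT higher and 7.77% with Apelin-KO higher. With upper-quartile scaling they numbered 1. Shares of all genes are not given for the alternative settings of this paragraph. Deviations of same-numbered samples correlated at r of -0.14, 0.21 and -0.02, so that not every pair deviated together. Those of differently numbered samples ran from -0.1953 to 0.2124, a range that held all same-numbered values. No label names what a number shares. The replicate block moved the count of members to 1. The cause of these changes was not tested.

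With each sample left out in turn, genes with an adjusted p-value under 0.05 numbered 0 to 3, members with an unadjusted p-value under 0.05 numbered 0 to 3 (4.91% to 11.2% of all genes tested), and members without overlap 2 to 9 of 43 (20.2% to 30% of all genes). The median difference ran from -0.16 to 0.14 for all members, from -0.08 to 0.45 for S-phase members and from -0.21 to 0.01 for mitotic members. Signs changed in 18 members without Apelin-KO 3, 7 without Apelin-KO 1, 6 without WT 2, 4 without WT 1, and 3 each without WT 3 and Apelin-KO 2. The differences of members whose sign changed ran, among S-phase members, from Ccne1 -0.33 to 0.45, Ccne2 -0.19 to 0.48, Cdc6 -0.0688 to 0.53, Gins2 -0.14 to 0.19, Mcm2 -0.13 to 0.53, Mcm3 -0.13 to 0.46, Mcm6 -0.0912 to 0.26, Mcm7 -0.0343 to 0.56, Pcna -0.0286 to 0.31, Rrm1 -0.12 to 0.27, Rrm2 -0.12 to 0.32 and Tyms -0.18 to 0.34. Among mitotic members they ran from Ccna2 -0.11 to 0.16, Ccnb1 -0.12 to 0.0924, Ccnb2 -0.36 to 0.0848, Cdk1 -0.18 to 0.0215, Cdc20 -0.23 to 0.0057, Cdc25b -0.34 to 0.0993, Cdc25c -0.29 to 0.037, Bub1 -0.17 to 0.26, Aurka -0.22 to 0.0645, Birc5 -0.19 to 0.21, Cenpe -0.0814 to 0.13, Kif20a -0.23 to 0.0489, Melk -0.0084 to 0.25, Foxm1 -0.15 to 0.0061 and Ube2c -0.19 to 0.0733. Each gene's variance was pooled over both arms. The fewest estimated reads of a member were 45.0 for Cdc6, 49.7 for Ccne1 and 82.9 for Ccne2, in Apelin-KO 3.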
